A study of Arabidopsis thaliana with 12 samples.

Results

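The genes described here are 4 family 9 endoglucanase genes of Arabidopsis thaliana: GH9B16 (AT4G38990), GH9B11 (AT2G44560), GH9B12 (AT2G44570) and GH9B8 (AT2G32990). They were chosen as the family members with a probe whose annotation names that gene and no other, which gave 4 probes, against 689 loci with such a probe and 3439 probes in the table. Plants were wild type of the ecotype Wassilevskija in both groups. In the sucrose medium group (6 samples) they had been treated with MS, a medium of plant salts, holding 60 mM sucrose, for 30 min, and in the water group (6 samples) they had been treated with water. The salts and the sugar were given together, and no group received the salts alone. No tissue, plant age or duration of the water treatment is given in the sources used here. The tissue could not be looked into with marker genes either. Of 18 marker entries written for leaf, root, pollen, seed, guard cells and phloem, 0 lay on a probe naming 1 gene.

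Family 9 endoglucanases cut glucan chains such as non-crystalline cellulose at internal bonds. Plants carry a membrane-anchored class A, to which KORRIGAN of cellulose synthesis belongs, a secreted class B with a catalytic domain alone, and a class C with an additional carbohydrate-binding module. All 4 genes are of class B by name, and the class as a whole is known for wall loosening and wall remodelling in growing, ripening and abscising tissues. In the RefSeq annotation of TAIR10.1, AT2G44560 and AT2G44570 are direct neighbours with 0 genes between them, at the end of a run that begins with AT2G44540 (GH9B9) and AT2G44550 (GH9B10). AT4G38990 likewise stands next to AT4G39000 (GH9B17), which is followed by AT4G39010 (GH9B18). AT2G32990 has no family member beside it.

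GH9B16 and GH9B11 were higher in sucrose medium than in water, and GH9B12, the direct neighbour of GH9B11, was lower when set against the rest of the array. GH9B16 was 1.93-fold and GH9B11 1.41-fold higher, and GH9B12 was 1.82-fold lower, after quantile normalisation. GH9B8, the dimmest of the 4, had 1.16 times its water level and was not past the threshold. Thus 2 of 4 genes were called higher, 1 lower and 1 not called, with a median log2 fold change of 0.35. Over all 2915 probes tested 31.5% were called higher and 32.9% lower (64.4% in either direction), with a median of -0.03, so 3 called genes of 4 do not set the family apart from the array. Calls are those of limma with a Benjamini-Hochberg adjusted p under 0.05 over all probes tested.

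The deposited values are linear intensities on a scale that ends at 100, and most probes were brighter in sucrose medium. Array medians lay between 0.422 and 0.459 in sucrose medium and between 0.171 and 0.188 in water. Without scaling the median log2 fold change of all probes was 1.09, and 90.5% of 2380 called probes were higher, against 48.9% of 1878 after quantile normalisation, 69.7% of 1556 after a straight-line scaling and 40.0% of 2016 after median centring. All directions below are therefore relative to the array as a whole. The unscaled values stand beside them.

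GH9B16 had deposited intensities of 0.808, 0.829, 0.831, 0.792, 0.972 and 0.884 in sucrose medium replicates 1 to 6, against 0.177, 0.204, 0.221, 0.202, 0.216 and 0.194 in water replicates 1 to 6. Every sucrose medium sample lay above every water sample, as was so for 63.6% of all probes tested on this scale. After quantile normalisation the log2 level averaged -0.72 ± 0.11 in sucrose medium and -1.67 ± 0.12 in water (SD, n = 6 each). The groups again did not overlap, which held for 21% of all probes tested. The log2 fold change was 0.95 ± 0.08 (SE; limma, adjusted p = 8.67e-07), with a higher value in 6 of 6 same-numbered sample pairs. Of all probes tested, 88.5% had a lower log2 fold change than GH9B16.

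GH9B11 had deposited intensities of 0.581, 0.583, 0.555, 0.507, 0.588 and 0.529 in sucrose medium, against 0.144, 0.157, 0.204, 0.169, 0.166 and 0.134 in water. The groups were apart on this scale, as was so for 63.6% of all probes tested. Water replicate 3 was the highest of its group. After quantile normalisation the log2 level averaged -1.48 ± 0.10 in sucrose medium and -1.97 ± 0.23 in water (SD, n = 6 each). On that scale the lowest sucrose medium sample, at -1.603, lay just below the highest water sample, at -1.595, so the groups touched. The log2 fold change was 0.50 ± 0.11 (SE; limma, adjusted p = 0.00126), higher in 6 of 6 pairs, and 73.9% of all probes tested had a lower one.

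GH9B12 had deposited intensities of 0.374, 0.384, 0.387, 0.373, 0.334 and 0.321 in sucrose medium, against 0.265, 0.277, 0.267, 0.260, 0.275 and 0.299 in water. Before scaling all 6 sucrose medium samples were thus the brighter ones, as was so for 63.6% of all probes tested. The difference was smaller than that of most probes: the unscaled log2 difference was 0.40, where the median of all probes was 1.09. After quantile normalisation the log2 level averaged -2.13 ± 0.15 in sucrose medium and -1.27 ± 0.05 in water (SD, n = 6 each), and the groups did not overlap, as was so in this direction for 23.3% of all probes tested. The log2 fold change was -0.86 ± 0.08 (SE; limma, adjusted p = 1.3e-06), lower in 6 of 6 pairs. Only 13.8% of all probes tested had a lower one. The direction of GH9B12 thus depends on whether arrays are scaled here. In deposited intensity, whose earlier scaling is not given, it was higher in sucrose medium (0.40; limma without scaling, adjusted p = 0.000183). It was lower with each of the 4 scalings tried.

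GH9B8 was near the bottom of the scale. It had deposited intensities of 0.0358, 0.0491, 0.103, 0.0773, 0.105 and 0.0945 in sucrose medium, against 0.0182, 0.0423, 0.0121, 0.0194, 0.0192 and a listed value of 0 in water. Sucrose medium replicate 1 lay below water replicate 2, so the groups overlapped. The fit left out water replicate 6, which is listed at 0, and put its log2 fold change at 0.21 ± 0.30 (SE, n = 6 sucrose medium and 5 water samples; limma, adjusted p = 0.551). The 95% interval of -0.44 to 0.86 spans a lower as well as a higher level, and 3 of 5 pairs were higher. On the unscaled log2 scale the difference was 1.82 (adjusted p = 0.000484), where 73.9% of all probes were called higher.

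**Figure D1:**
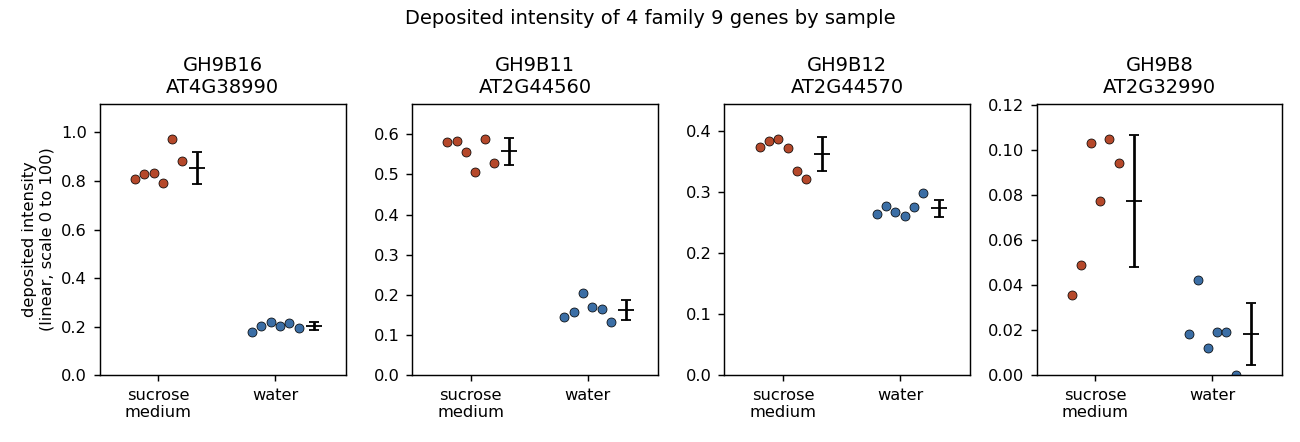
Deposited intensity (linear scale, vertical axis from 0) of GH9B16, GH9B11, GH9B12 and GH9B8 in each sample, with replicates 1 to 6 from left to right in sucrose medium and then in water. Horizontal dashes with bars are mean ± SD over 6 samples. GH9B16 lies between 0.792 and 0.972 in sucrose medium and between 0.177 and 0.221 in water, GH9B12 between 0.321 and 0.387 and between 0.260 and 0.299, and the groups overlap for GH9B8 alone.

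The array-wide shift was not the same at all levels, so each gene was also set beside probes of like brightness. The 2915 probes were put in 4 classes of equal size by their mean log2 intensity over all 12 samples. From the dimmest to the brightest class the median unscaled log2 fold change was 1.35, 1.40, 1.21 and 0.18. GH9B16, in the third class, had an unscaled log2 fold change of 2.07, and 89.4% of its class had a lower one. GH9B11 and GH9B12 both lay in the second class, at 1.79 and 0.40, where 71.6% and 12.6% of the class lay lower. GH9B8, in the dimmest class, had 1.82, above 70.0% of its class. The neighbours GH9B11 and GH9B12 were thus on opposite sides of the median of probes as bright as themselves.

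**Figure D2:**
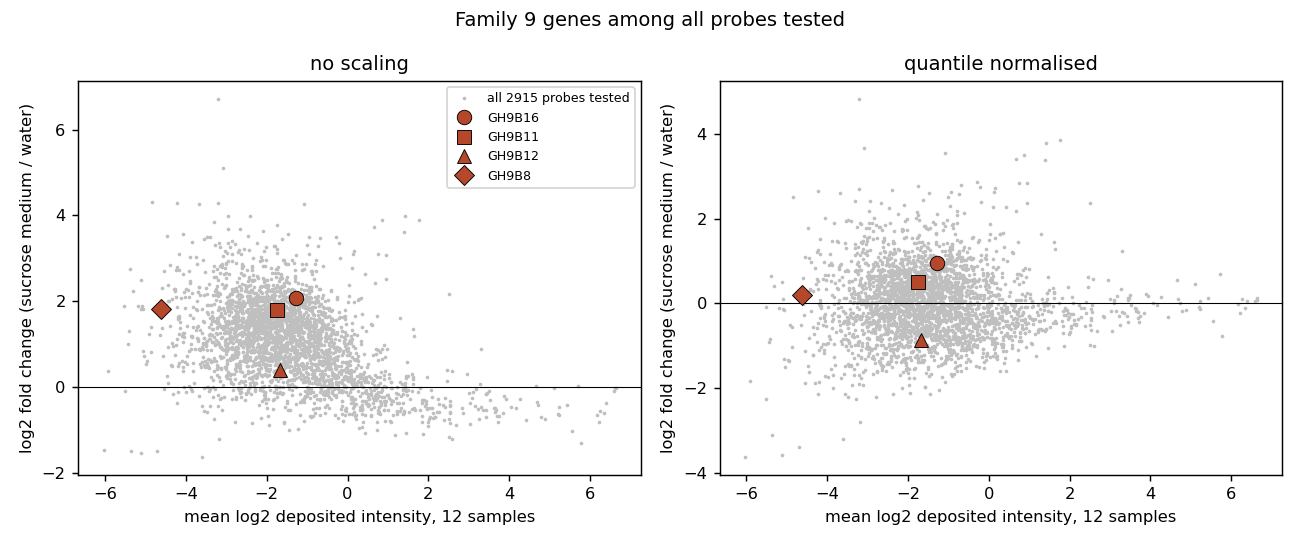
Log2 fold change (sucrose medium over water, vertical axis) against mean log2 deposited intensity over 12 samples (horizontal axis) for all 2915 probes tested (grey), without scaling on the left and after quantile normalisation on the right. Red symbols are the 4 family 9 genes. GH9B16 lies above 89.4% and GH9B11 above 71.6% of the probes of their brightness class without scaling, GH9B12 above 12.6%, and GH9B8 is at the dim end.

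Other scalings moved the sizes but not the order of GH9B16, GH9B11 and GH9B12. GH9B16 had log2 fold changes of 0.82 with median centring, 0.85 with cyclic loess and 1.77 with a straight-line scaling. GH9B11 had 0.53, 0.44 and 1.05 with the same scalings, and GH9B12 had -0.86, -0.94 and -1.48. These values were past the threshold in each case (limma, adjusted p at most 0.00373, for GH9B11 with cyclic loess). Samples 1 and 2, 3 and 4, and 5 and 6 of a group were mostly more alike than others (Spearman correlations over 2805 probes of 0.957 to 0.986, against 0.915 to 0.959), and the labels do not say whether they are repeats. With each such set averaged, leaving 3 values a group, GH9B16, GH9B11 and GH9B12 still passed, with adjusted p of 0.00202, 0.0293 and 0.00304 from limma, where 46.9% of all probes did.

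**Figure D3:**
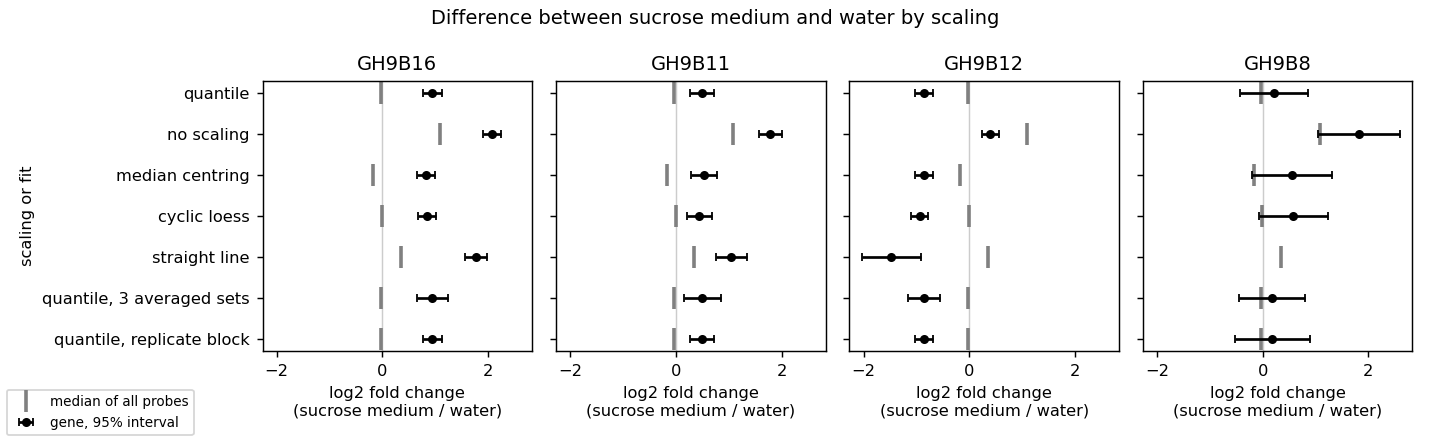
Log2 fold change (sucrose medium over water, horizontal axis) of each gene with its 95% interval from limma (black) under 7 scalings or fits (vertical axis), beside the median of all probes tested in that setting (grey bars). GH9B16 and GH9B11 lie right of the grey bar in every row and GH9B12 left of it, also without scaling, where GH9B12 itself is at 0.40 and the grey bar at 1.09. GH9B8 has no value with the straight line.

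Whether the genes differed from each other in their response was tested directly, from the difference of their log2 levels within a sample. This compares the change of 2 probes and not their levels. The ratio of GH9B11 to its neighbour GH9B12 in deposited intensity was 1.55, 1.52, 1.44, 1.36, 1.76 and 1.65 in sucrose medium, against 0.544, 0.567, 0.763, 0.649, 0.605 and 0.447 in water. Every sucrose medium sample was above every water sample. How often other pairs of probes part in this way was not counted, here or for the pairs below. Of all probes tested, 73.9% had a lower normalised log2 fold change than GH9B11 and 13.8% a lower one than GH9B12. After quantile normalisation the log2 difference between these genes averaged 0.65 ± 0.13 in sucrose medium and -0.71 ± 0.23 in water (SD, n = 6 each), a change of 1.36, or 2.57-fold (exact permutation test, two-sided, p = 0.00216, adjusted p = 0.00433 over 6 pairs of genes). That p is the smallest 12 samples can give. Taken without scaling, the change was 1.39 (adjusted p = 0.00649), so the neighbours diverged by as much before scaling.

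GH9B16 differed from GH9B12 by more. Their ratio in deposited intensity lay between 2.12 and 2.91 in sucrose medium and between 0.649 and 0.827 in water, and sucrose medium replicates 5 and 6 were the highest. The change on the normalised log2 scale was 1.81, or 3.50-fold (exact permutation test, adjusted p = 0.00433). Between GH9B16 and GH9B11 the change was smaller, at 0.45 or 1.36-fold, with the log2 difference at 0.75 ± 0.14 in sucrose medium and 0.30 ± 0.13 in water (SD, n = 6 each; exact permutation test, adjusted p = 0.00433). Without scaling it was 0.29 (exact permutation test, adjusted p = 0.013), and the ratios of deposited intensities overlapped, at 1.39 to 1.67 in sucrose medium and 1.08 to 1.45 in water.

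GH9B8 could be placed less well, with 11 samples and a wide spread. Its response was above that of GH9B12 by 1.06 on the log2 scale (GH9B12 minus GH9B8 -1.06; exact permutation test, adjusted p = 0.039), a call that was lost when any 1 of 7 samples was left out. GH9B16 minus GH9B8 was 0.71 and GH9B11 minus GH9B8 was 0.23, and neither passed (exact permutation test, adjusted p = 0.0675 and 0.545). Without water replicate 3 the difference of GH9B16 from GH9B8 was 0.92 and passed (exact permutation test, adjusted p = 0.0143). It was 0.24 without scaling (exact permutation test, adjusted p = 0.717) and also with cyclic loess (adjusted p = 0.593). Median centring shifts each array by a constant, which cancels within a sample, so it can only repeat the unscaled result. With the replicate number as a pairing, an exact sign-flip test over 6 pairs can give no p below 0.0312, and the 3 differences among GH9B16, GH9B11 and GH9B12 then had an adjusted p of 0.0625. With averaged sets the smallest p is 0.1, and the adjusted p was 0.15.

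**Figure D4:**
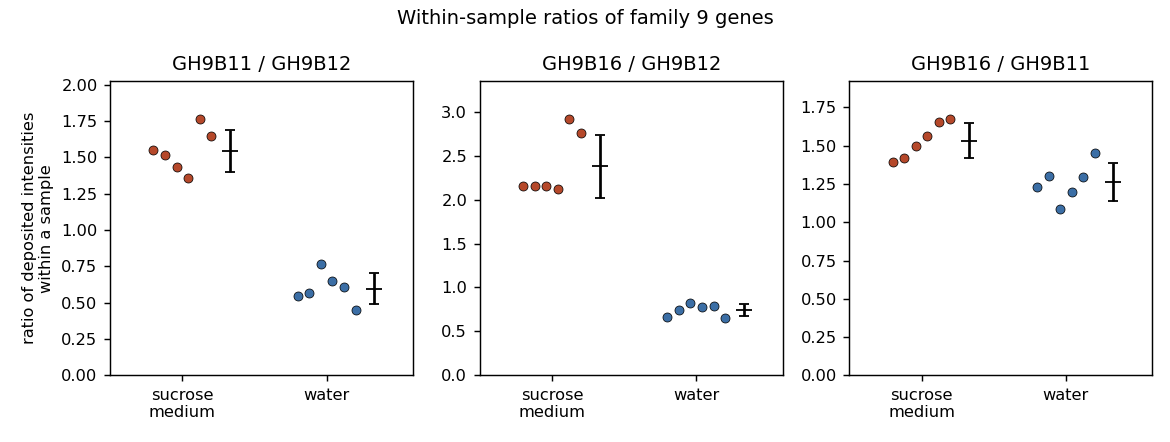
Ratio of the deposited intensities of 2 genes within each sample (vertical axis, linear from 0), with replicates 1 to 6 from left to right in sucrose medium and then in water, and dashes with bars for mean ± SD over 6 samples. GH9B11 over GH9B12 lies between 1.36 and 1.76 in sucrose medium and between 0.447 and 0.763 in water. The groups are also apart for GH9B16 over GH9B12 and overlap for GH9B16 over GH9B11.

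Of the 25 family 9 loci of Arabidopsis, 12 were on some probe of the array, 4 of them on a probe of their own and 8 on shared probes alone. A further 7 probes were annotated to more than 1 gene with at least 1 of family 9 among them, and their signal cannot be given to any 1 gene. Of these 7, 2 were called higher, 1 lower and 2 were not called, and 2 had too few values above 0 for the fit. Of all 740 tested probes that name several genes, 226 were called higher and 243 lower, so this tally does not set the family apart. The probe of GH9B9 to GH9B12 and that of GH9B16, GH9B17 and GH9B18 overlap members in target and are not further replicates of them. The rest name none of the 4 genes. Whether related transcripts also bind the probes that name 1 gene was not tested.

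Both shared probes of the GH9B16 run were brighter in sucrose medium, as were most probes of the array. The probe annotated to GH9B16, GH9B17 and GH9B18 had deposited intensities of 0.596, 0.611, 0.559, 0.496, 0.709 and 0.623 in sucrose medium, against 0.0910, 0.0659, 0.123, 0.104, 0.175 and 0.105 in water. Its log2 fold change was 1.21 ± 0.18 (SE; limma, adjusted p = 6.67e-05). The groups were apart on both scales, as was so for 63.6% of all probes tested in deposited intensity and 21% after quantile normalisation. The probe annotated to GH9B17, GH9B18 and AT3G42155 had 0.250, 0.148, 0.214, 0.251, 0.285 and 0.282 in sucrose medium, while 5 of 6 water samples were listed at 0 and water replicate 6 at 0.00304. It therefore had too few values above 0 for the fit and is given with no fold. With 0.05 added to every intensity before log2, which keeps zeros, it was higher in sucrose medium (log2 difference of 1.93 on that scale; by limma, adjusted p = 1.56e-07).

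In the run of GH9B9 to GH9B12 the shared probes had log2 fold changes between those of GH9B12 and GH9B11. The probe annotated to all of GH9B9, GH9B10, GH9B11 and GH9B12 had deposited intensities between 0.294 and 0.360 in sucrose medium and between 0.0864 and 0.147 in water. Its log2 fold change was 0.27 ± 0.13 and did not pass (SE; limma, adjusted p = 0.0967). Without water replicate 3 it was 0.37 and passed (limma, adjusted p = 0.0104), and with intensities under 0.02 as missing it was 0.34 and passed (adjusted p = 0.0449). Without scaling it was 1.599 (adjusted p = 9.23e-08), and with the straight-line scaling it was called in the other direction, at -1.19 (adjusted p = 0.0323). The probe annotated to GH9B9 and GH9B10 had 0.202 to 0.307 in sucrose medium and 0.0531 to 0.100 in water, and its log2 fold change of 0.41 ± 0.18 missed the threshold (SE; by limma, adjusted p = 0.0595). It passed without sucrose medium replicate 3 or 5 and without water replicate 3 or 5, at 0.48, 0.50, 0.50 and 0.47 (limma, adjusted p = 0.0428, 0.0324, 0.0274 and 0.0461). It also passed without scaling (1.75, adjusted p = 7.63e-07), with median centring (0.49, adjusted p = 0.0244), with a random block (adjusted p = 0.0492) and with intensities under 0.02 as missing (0.52, adjusted p = 0.0196). With averaged sets it did not (limma, adjusted p = 0.167), so its call depends on the setting.

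The remaining shared probes went both ways. Of 2 probes annotated to GH9B14 and GH9B15, the first had 0.386 to 0.805 in sucrose medium and 0.0767 to 0.185 in water, and its log2 fold change of 0.76 ± 0.25 passed (SE; by limma, adjusted p = 0.0193). It was not past the threshold with averaged sets (adjusted p = 0.107). The second had 0.0163, 0.644, 0.340, 0.388, 0.848 and 0.504 in sucrose medium, against 0, 0.106, 0, 0.0832, 0.212 and 0 in water, and had too few values above 0 for the fit. Other settings that could fit it disagreed and none passed, with 2.23 for the straight line, 1.37 with 0.05 added and -0.10 with at least 2 values a group (by limma, adjusted p = 0.0515, 0.112 and 0.944). The probe annotated to GH9C2 and GH9C3, which are of class C, had 0.382 to 0.473 in sucrose medium and 0.335 to 0.418 in water. Its log2 fold change was -1.03 ± 0.09 (SE; limma, adjusted p = 9.96e-07), and without scaling it was 0.15 and not past the threshold (adjusted p = 0.111). Its unscaled difference lay below the median of all probes, 1.09. So did that of GH9B12, which at 0.40 was nevertheless called higher (limma without scaling, adjusted p = 0.000183).

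**Figure D5:**
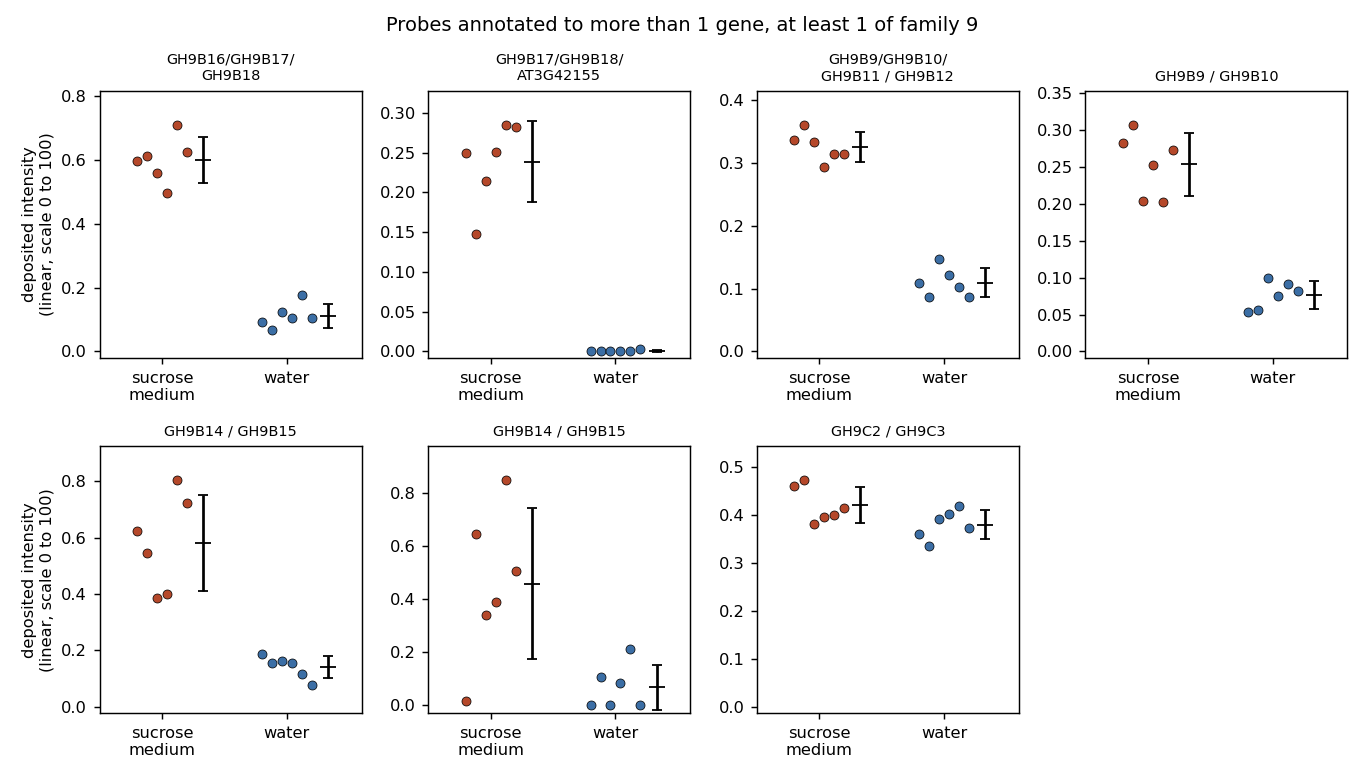
Deposited intensity (linear scale, vertical axis) of the 7 probes annotated to more than 1 gene, with replicates 1 to 6 from left to right in sucrose medium and then in water, and dashes with bars for mean ± SD over 6 samples. The probe of GH9B17, GH9B18 and AT3G42155 is listed at 0 in 5 of 6 water samples, and that of GH9C2 and GH9C3 lies between 0.382 and 0.473 in sucrose medium and between 0.335 and 0.418 in water.

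Of the other wall genes looked for, 1 was found on a probe of its own, and 1877 of the 3439 probes carried no annotation. Of the listed loci for cellulose synthesis (16), expansins (24) and xyloglucan endotransglucosylase/hydrolases (33), 0 were on any annotated probe. A search of gene names for wall terms added 1 gene, CSLA01 (AT4G16590), of a family whose members make mannan backbones. It had a log2 fold change of -0.38 ± 0.19 and was not past the threshold (SE; limma, adjusted p = 0.100). It passed in the fit that pairs samples by number (limma, adjusted p = 0.013) and, at -0.53, when water replicate 1 was left out (limma, adjusted p = 0.0099). It did not pass with averaged sets (limma, adjusted p = 0.0832). Without scaling it was called in the other direction, at 0.93 (adjusted p = 0.00082), below the median of all probes.

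The genes whose normalised profile over the samples was closest to each of the 4 were found by the root-mean-square difference, on the log2 scale, of profiles centred on their own mean. For GH9B16 they were AT2G29870, AT3G54550 and AT3G51930, with differences of 0.14, 0.15 and 0.16 over 12 samples, where the median over 563 genes was 0.58. For GH9B11 they were AT4G23080, AT4G21820 and AT2G43760, with 0.12, 0.13 and 0.15 against a median of 0.47. For GH9B12 they were AT1G11730, AT5G03900 and LPA19 (AT1G05385), an assembly factor of photosystem II, each at 0.11 against a median of 0.58. For GH9B8 they were AT1G68430, Cpn60beta3 (AT5G56500), a plastid chaperonin subunit, and AT3G44050, at 0.35, 0.38 and 0.39 over 11 samples against a median of 0.63 over 564 genes. Among the family genes themselves GH9B11 and GH9B16 differed by 0.25, and GH9B11 and its neighbour GH9B12 by 0.70. Both values follow largely from the fold changes of these genes and are not separate from the differences in response above.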

How the data were processed

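The authors deposited 1 linear intensity per probe and sample in 1 table (3439 probes, 12 samples); background correction, scaling, spot averaging and array type are not given in the sources used here. Groups and replicate numbers came from the sample titles. Intensities of 0 were taken as missing, the rest log2 transformed and quantile normalised. Probes with at least 4 values in each group (2915) were fitted with limma 3.58.1 in R 4.3.3 (lmFit, eBayes, two-sided, no block), adjusted by Benjamini-Hochberg over all of them. Differences between genes used exact permutation tests (scipy 1.17.1, Python 3.11.15), and figures matplotlib 3.10.9. Both steps were tested on simulated data of independent normal values. These held no sample sets and no pairing, and the normalisation was not part of the test.

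Probe annotation was GEO's platform table (692 probes with 1 gene, 870 with several, 1877 not listed), matched by gene identifier to RefSeq genes of TAIR10.1 (690 of 692 matched). No coordinates are given because the files name no build, and no sequences because none were in the tables used here. The 4 genes, the wall and marker lists and the tests were chosen with earlier results of these data known. Named genes are the 4 members, measured genes of the wall lists and, for each member, the 3 genes of most similar profile. The shared probes were added after their annotation was seen.

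Separate cultures are not stated for the samples of a group. The p-values therefore reflect spread among these samples only, which may be technical, and the number of arrays limits the precision. Same-numbered samples of the groups deviated together (correlations of 0.280 to 0.450 in 6 of 6 pairs, over 2805 probes, which are not independent), so fits and tests that pair samples by number were run as alternatives to the unpaired main ones; part of this belongs to the sets of samples 1 and 2, 3 and 4, 5 and 6 (0.162 to 0.282 for other numbers of a set, -0.290 to 0.045 otherwise).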

Additional observations from a re-analysis of the deposited data

Results flagged for a closer look

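Among 20 groups of samples examined, 4 genes and shared probes together, 1 sample lay far from the rest of its group. On the second probe annotated to GH9B14 and GH9B15, sucrose medium replicate 1 had a normalised log2 level of -6.99, where its group's median was -1.85. The gap to the next sample was 0.765 of the range of the 6 samples. The cut-off used for this flag is passed by chance in about 1 of 20 groups, and this gap lay beyond it. The deposited intensity of that sample was 0.0163, near the bottom of the scale, where the log2 scale widens gaps.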

How the results depend on the processing

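GH9B16 and GH9B11 kept direction and call in all 13 other settings (log2 fold changes of 0.82 to 2.07 and 0.40 to 1.79) and without each of the 12 samples in turn. GH9B12 kept both in 11 of 13 settings and without each sample. It was above 0 without scaling (0.40) and in an exact permutation test on deposited intensities, added after seeing the data (0.40). GH9B8 passed in those same settings, at 1.82 without scaling and at 2.06 in the permutation test (exact permutation test, unadjusted p = 0.00433). For each gene that test gives the log2 ratio of mean deposited intensities, zeros included, and its p is not adjusted. GH9B8 was at -0.034 with 0.05 added before log2, which keeps its 0. Requiring values in all samples, a straight line, or dropping intensities under 0.02 (also added later) left GH9B8 too few values to fit. The replicate block changed no call of the 4 genes. For GH9B16, GH9B11 and GH9B12, averaged sets, replicate blocks and rules on the number of values left the fold change unchanged. Only the call could move there. Without scaling, 73.9% of all probes tested were called higher. Other reversals were the shared probes of GH9B9 to GH9B12 with the straight line (-1.19) and of GH9C2 and GH9C3 without scaling (0.15), and CSLA01 without scaling (0.93); the cause was not tested.

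With averaged sets, differences between genes were 0.45 (GH9B16 minus GH9B11), 1.81 (GH9B16 minus GH9B12), 1.36 (GH9B11 minus GH9B12) and -1.04 (GH9B12 minus GH9B8). As same-numbered pairs in a replicate block they were 0.45, 1.81, 1.36 and -0.99. Neither design can pass the threshold after this adjustment, with 3 values a group or 5 to 6 pairs. GH9B11 minus GH9B8 turned to -0.086 without scaling, -0.21 with cyclic loess and -0.023 without water replicate 2. Median centring cancels within a sample and so repeats the unscaled value. With 0.05 added GH9B11 minus GH9B8 passed (0.43), as did GH9B16 minus GH9B8 (0.85). Leaving out single samples gave -0.023 to 0.48 for GH9B11 minus GH9B8, 0.46 to 0.92 for GH9B16 minus GH9B8 and -1.28 to -0.87 for GH9B12 minus GH9B8; the last lost its call without sucrose medium replicate 3, 4, 5 or 6 or water replicate 1, 3 or 4 (exact permutation test, adjusted p = 0.0595 to 0.1). The count of 1878 called probes lay between 1366 and 2380 over 12 other settings. Without scaling 2154 probes were higher and 226 lower, and with the straight line 472 were lower, against 918 and 960. The signal over background is unknown for every probe, those of GH9B16, GH9B11 and GH9B12 included. This limits what can be told, most of all for dim GH9B8.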
